A study of Mus musculus with 32 samples.

Results

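Granulocyte-macrophage progenitors (GMPs) of Aged mice were compared with those of Young mice across all genes. These were 4 of the 32 RNA-seq libraries of a study of hematopoietic aging, chosen by their labels: 2 of GMPs from 10-week-old (Young) and 2 from 20-month-old (Aged) female C57BL/6 mice. The cells were sorted by flow cytometry from bone marrow by the labels' gate, negative for IL-7, lineage markers and Sca-1 and positive for c-kit, FcgR and CD34. The other 28 libraries held hematopoietic stem cells (HSCs), the multipotent progenitors MPP1 to MPP4, common lymphoid progenitors (CLPs) and the bipotent precursors of megakaryocytes and red cells (MEPs), again 2 per age, with no treatment or engineered allele in any group. Marrow was described in one place as pooled before it was sorted in duplicate and elsewhere as biological duplicates. The p-values therefore measure the spread between duplicates, which may be technical. In the main fit that spread was shared over the 16 groups of all 32 libraries and is not that of the GMP duplicates alone.

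GMPs are the bone marrow progenitors from which neutrophils, eosinophils, basophils, monocytes and macrophages arise. They transcribe the enzymes of the primary granule, the store of antimicrobial proteases and peroxidase of the neutrophil, at very high levels, under the transcription factors PU.1 (Spi1), C/EBPα (Cebpa), Irf8 and Gfi1. They divide rapidly, and in infection or inflammation interferons and other cytokines raise their output.

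The labelled cell type was read first from defining genes. Levels are given as CPM, the read count of a gene per 1000000 counts of its library after scaling by the trimmed mean of M-values (TMM), and are not divided by gene length. Mpo, myeloperoxidase, had 69091 and 68911 CPM in Young and 69106 and 67602 CPM in Aged GMPs. The 19 primary granule genes of the list used here summed to 105080 to 107430 CPM in the 4 GMP libraries and to 1258 to 8089 CPM in the other 28, so that all 4 libraries carried the defining markers of their label. Among the antigens of the sort, Cd34 stood at 472, 474, 493 and 450 CPM and Fcgr3 at 489, 473, 488 and 497 CPM in Young 1, Young 2, Aged 1 and Aged 2, and neither passed the test. Il7r, the IL-7 receptor gene, had 0 counts in all 4 libraries, which allows up to 3 counts in each. Ly6a, which encodes the Sca-1 that the sort removed, was uneven between duplicates, at 22.7 and 0.829 CPM in Young and 13.2 and 3.03 CPM in Aged GMPs. Its difference was not called, and without Young 1 it was called higher in Aged GMPs, by 3.27 on the log2 scale (adjusted p = 0.0023, edgeR). Of the other lineage antigens, Cd4 had 58 counts in Young 2 and 0 in the other 3 libraries, and its call as lower fell to a difference of 0 without that library. Kit was called higher by 0.41 (SE 0.11), and that call was lost without any 1 of the 4 libraries, the adjusted p then being at most 0.095.

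Total counts were 17387889 and 17723245 in Young and 13161206 and 13426057 in Aged GMPs, against 11237384 to 16351862 in the other 28 libraries. Genes with a count above 0 numbered 12658 and 12666 in Young and 12955 and 12984 in Aged GMPs, and the median of the other 28 libraries was 14193. The 10 genes with the most counts took 9.77% to 10.0% of each GMP library and 3.75% to 7.27% of each of the others. Duplicates of Young GMPs differed by a root mean square of 0.755 on the log2 scale and those of Aged GMPs by 0.508. Among the other groups it ran from 0.447 in Aged MPP2s to 0.840 in Young MEPs. In Young GMPs 190 genes were at or under 3 counts in one duplicate and at 1 CPM or more in the other, against 56 in Aged GMPs, 291 in Young MEPs and 40 to 93 in the other 13 groups. Whether the Young GMP libraries were a separate preparation was not given in the sources used here and cannot be told apart from age.

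A large part of the GMP transcriptome differed between Aged and Young libraries, mostly by small amounts. Of 14154 genes tested by the quasi-likelihood F-test of edgeR, fitted on all 32 libraries with Benjamini-Hochberg adjustment, 2674 (18.9%) differed at an adjusted p under 0.01. Of these, 1405 (9.93%) were upregulated and 1269 (8.97%) were downregulated in Aged GMPs. The median absolute log2 fold change was 0.61 over the genes called and 0.29 over all genes tested, and the median of all genes tested was 0. Changes of at least 2-fold were found in 407 upregulated and 167 downregulated genes, and of at least 4-fold in 130 and 69. DESeq2 called 2657 of the 2674 genes in the same direction. A fit on the 4 GMP libraries alone called 256 genes higher and 232 lower, 462 of them among the 2674. Without Aged 1, 719 were called higher and 592 lower, and without Aged 2, 983 and 796. In bulk samples such as these, fewer cells of a type and less RNA per cell cannot be told apart.

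Genes were ranked where they were called, also by DESeq2, averaged 20 CPM or more and exceeded 3 counts in each GMP library. Both Aged libraries also had to lie beyond both Young ones, so this separation was fixed by the choice. Of the 8 with the largest upregulation, 7 were immediate early genes, which respond to signals within minutes of their arrival, and stress-induced genes. Larger fitted changes of genes near 0 counts in a library are outside this rule. Fos (chromosome 12, 85473890 to 85477273, mm10), a subunit of the transcription factor AP-1, had 215 and 277 counts in Young and 8899 and 7278 in Aged GMPs, or 15.3 and 19.1 against 796 and 648 CPM. Jun (chromosome 4, 95049034 to 95052222), its partner, had 28.8 and 35.0 CPM in Young against 680 and 618 CPM in Aged cells. Both Aged libraries lay far above both Young libraries for each gene. The log2 fold change was 5.39 (SE 0.28, adjusted p = 8.94e-11, edgeR) for Fos and 4.35 (SE 0.22, adjusted p = 2.14e-11) for Jun. Dusp1, a phosphatase that switches off MAP kinases, rose 27.4-fold, from 3.78 and 6.91 to 178 and 116 CPM. Zfp36, which promotes the decay of cytokine mRNAs, had 20.4 and 25.8 CPM in Young and 259 and 228 CPM in Aged cells, a change of 10.5-fold. Ppp1r15a, a stress-induced regulatory subunit of the phosphatase that restores translation, rose 7.85-fold to 98.0 and 97.1 CPM.

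Hspa1a (chromosome 17, 34969190 to 34972156), which encodes the inducible chaperone Hsp70, had 89 and 91 counts in Young against 4197 and 8476 in Aged GMPs. The neighbouring copy Hspa1b had 122 and 102 against 4084 and 8343 counts. Reads of this near-identical pair can be assigned to either, so the values of each are uncertain. The Aged libraries did not overlap with the Young ones but differed from each other by about as much for both copies, at 376 and 755 CPM for Hspa1a. Their log2 fold changes were 6.48 (SE 0.56) and 6.14 (SE 0.55), with adjusted p of 5.6e-08 and 7.66e-08 (edgeR). The remaining gene of the 8 most upregulated was H2-Q9, a nonclassical class I gene of the major histocompatibility complex (MHC), with 7.41 and 14.8 CPM in Young and 165 and 211 CPM in Aged cells. Its sequence is close to that of other H2-Q genes, and its call was lost without Young 1 (adjusted p = 0.012).

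**Figure D1:**
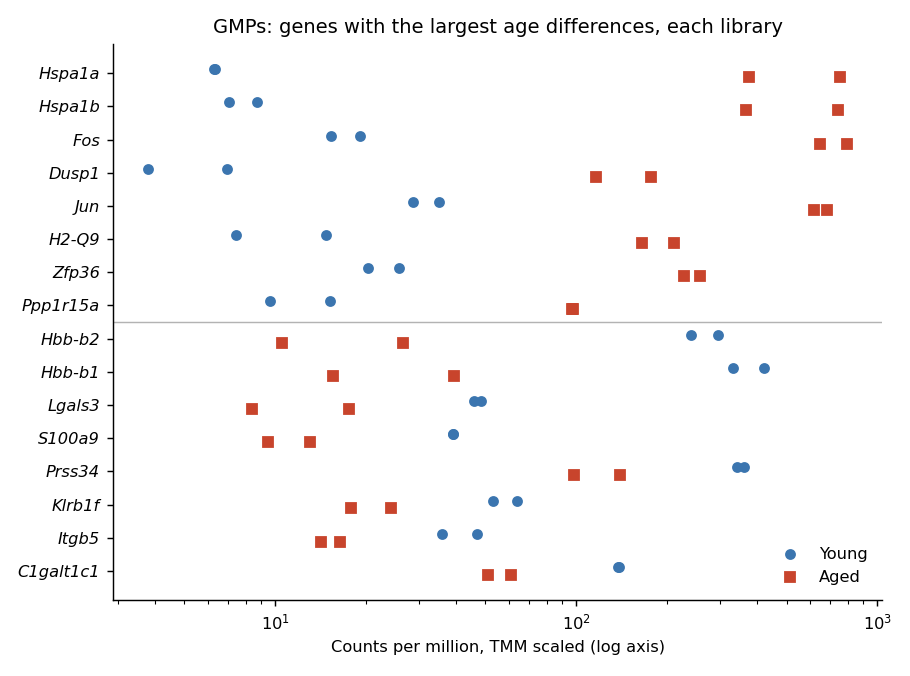
CPM on a log axis of the 8 most upregulated (upper part) and 8 most downregulated (lower part) genes that met the naming rule, with 1 point for each of the 2 Young (circles) and 2 Aged (squares) GMP libraries. The naming rule required both Aged points to lie on one side of both Young points, as for Fos at 15.3 and 19.1 against 796 and 648 CPM.

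Of 33 immediate early and heat shock genes, 16 were upregulated (48.5%) and 5 downregulated (15.2%), against 9.93% and 8.97% of all genes tested. Their median log2 fold change was 0.75 against 0 over all genes tested. Egr1, a zinc finger factor of the early response, had 3 and 7 counts in Young and 771 and 932 in Aged GMPs, a log2 fold change of 7.72 (SE 0.26). Fosb had 0.570 and 0.276 CPM in Young and 5.82 and 5.43 CPM in Aged cells. Klf2, a Krüppel-like factor, rose 6.08-fold and Btg2, an antiproliferative factor, 2.61-fold. The 5 members that fell were the chaperones and co-chaperones Hspa8, Hsph1, Dnaja1, Hsp90aa1 and Hspd1, which assist the folding of proteins. Hspa8 had 4434 and 4530 CPM in Young and 3098 and 2714 CPM in Aged GMPs, and its log2 fold change was -0.63 (SE 0.08, adjusted p = 3.4e-06, edgeR). Dnaja1 and Hsp90aa1 changed by -0.53 and -0.33, and neither was called after a correction for GC content and gene length. When 1 library was left out, 14 to 16 members were called higher and 3 (without Young 1) to 6 lower, and in the fit of the 4 libraries alone 11 were higher and 2 lower.

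The levels of Fos and Egr1 in GMPs lay far below those in the stem and multipotent fractions. Fos had a mean of 17.2 CPM in Young and 722 CPM in Aged GMPs, whereas the 5 fractions from HSC to MPP4 held 2922 to 5365 CPM at both ages. Egr1 had means of 0.349 and 76.0 CPM in Young and Aged GMPs against 1285 to 4213 CPM in those fractions. Aged GMPs were also below the stem and multipotent fractions for both genes. The 33 genes of the list summed to 9767 and 9846 CPM in Young and 10938 and 11104 CPM in Aged GMPs, against 21978 and 23480 CPM in Young MPP3s. In the other committed progenitors Fos rose from 0 to 76.3 CPM in MEPs and fell from 2343 to 549 CPM in CLPs. Hspa1a differed from this pattern: it was called higher with age in each fraction from HSC to MPP4 and in MEPs, where the log2 fold change was 4.87, and was not called in CLPs (0.94).

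Interferon-stimulated genes were the next group with many upregulated members. Of 73 tested, 23 rose (31.5%) and 3 fell (4.11%), against 9.93% and 8.97% of all genes tested. The median log2 fold change was 0.35. The interferon-inducible GTPases, which act on vacuoles that hold intracellular pathogens, led the list. Gbp5 (chromosome 3, 142493978 to 142522344) had 2.71 and 2.90 CPM in Young and 16.9 and 18 CPM in Aged GMPs, a log2 fold change of 2.63 (SE 0.35, adjusted p = 8.81e-06, edgeR). Tgtp1 had 18.2 and 19.8 against 65.3 and 73.8 CPM, and its near-identical neighbour Tgtp2 had 23.1 and 26.4 against 78.0 and 83.8 CPM, changes of 3.66-fold and 3.27-fold. Gbp6 had 3 and 0 counts in Young and 60 and 78 counts in Aged GMPs. Iigp1 went from 0.926 and 0 to 3.58 and 8.64 CPM. In each of these genes both Aged libraries lay above both Young ones, and reads may be shared within the Gbp and Tgtp families.

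The promoters of 3 of these GTPase genes, among the most upregulated of the list, are shown because each holds a match to the core of the interferon-stimulated response element (GAAA, any 2 bases and GAAA again), in capitals. Each runs from 250 bases before to 50 bases after the start of the RefSeq gene, 5′ to 3′ on the strand of the gene in GRCm38.p6. The match began 165 bases before the start in Gbp5 (chr3:142496684-142496983, plus strand), 77 bases before it in Tgtp1 (chr11:48992197-48992496, minus strand) and 70 bases before it in Tgtp2 (chr11:49064163-49064462, minus strand). In Gbp5 it lay on the reverse complement.
Gbp5: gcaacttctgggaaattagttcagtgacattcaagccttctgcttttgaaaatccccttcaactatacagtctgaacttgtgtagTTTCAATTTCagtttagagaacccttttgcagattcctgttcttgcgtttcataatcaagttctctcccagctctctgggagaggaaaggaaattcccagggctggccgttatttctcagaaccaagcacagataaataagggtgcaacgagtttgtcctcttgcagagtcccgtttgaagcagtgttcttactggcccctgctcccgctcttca
Tgtp1: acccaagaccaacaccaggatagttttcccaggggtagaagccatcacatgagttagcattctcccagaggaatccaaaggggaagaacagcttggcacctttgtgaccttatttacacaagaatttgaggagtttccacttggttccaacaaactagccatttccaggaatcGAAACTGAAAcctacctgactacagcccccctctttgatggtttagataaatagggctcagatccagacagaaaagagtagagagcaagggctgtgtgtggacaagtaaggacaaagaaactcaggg
Tgtp2: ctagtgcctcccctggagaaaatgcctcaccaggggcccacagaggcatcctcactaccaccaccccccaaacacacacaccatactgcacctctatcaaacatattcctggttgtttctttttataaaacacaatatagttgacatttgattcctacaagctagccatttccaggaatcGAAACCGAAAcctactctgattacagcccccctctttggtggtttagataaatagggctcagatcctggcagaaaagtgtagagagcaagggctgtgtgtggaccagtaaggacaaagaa
On either strand, the letters occurred in 413 of 10646 promoters of tested genes (3.88%) and in 11 of the 17 promoters found for the 23 upregulated interferon-stimulated genes. They also occurred in 28 of the 56 promoters found for all 73 interferon-stimulated genes tested and in 2 of the 2 found for the 3 downregulated ones. Under 80% of the 23 upregulated genes had a promoter in the table, which makes a comparison of the shares void. A match is a description of the sequence and not of a bound factor.

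Irf1, a transcription factor of the interferon response, rose from 64.5 and 65.2 to 108 and 122 CPM (log2 fold change 0.83, SE 0.11). Several common type I targets did not follow. Isg15, a ubiquitin-like modifier, had 2.99 and 3.39 CPM in Young and 2.86 and 2.94 CPM in Aged cells, and Ifit1, which binds viral RNA, had 3.42 and 3.66 against 2.86 and 3.38 CPM. Neither was called. Rsad2, which encodes the antiviral enzyme viperin, fell from 12.5 and 13.4 to 1.88 and 2.49 CPM, a log2 fold change of -2.56 (SE 0.19, adjusted p = 9.73e-09). Its 2 Aged libraries lay well below both Young ones. Leaving out any 1 library gave 17 to 22 members called higher, and the 4 libraries alone gave 6.

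MHC class I genes, which display peptides of the cell interior, moved in the same direction. Of 24, 13 rose (54.2%, against 9.93% of all genes tested) and 0 fell (0 by DESeq2, 1 at an unadjusted p under 0.05 in edgeR). The median log2 fold change was 0.37. The 13 include Tap1, Tap2 and Psmb9, which also stand among the interferon-stimulated genes, and Calr, which is also counted in the primary granule list. Nlrc5, the transactivator of class I genes, had 8.34 and 7.12 CPM in Young and 32.3 and 30.7 CPM in Aged GMPs, a change of 4.08-fold (adjusted p = 2.62e-08, edgeR). H2-K1, a classical heavy chain, rose from 1127 and 1066 to 1679 and 1867 CPM and H2-D1 from 1683 and 1638 to 2292 and 2496 CPM. H2-Q6 and H2-Q4 rose 3.38-fold and 2.56-fold, with the reservation that H2 genes share sequence. The light chain B2m, with 1623 and 1553 against 1533 and 1818 CPM, and the immunoproteasome subunit Psmb8, with 688 and 595 against 623 and 663 CPM, overlapped between ages and were not called. The 4 libraries alone gave 5 members called higher and 1 lower. Of 18 genes of MHC class II presentation, 1 was called, the invariant chain Cd74, which had 10.6 and 10.2 CPM in Young against 0.805 and 3.21 CPM in Aged cells. That call was lost without Aged 1 (adjusted p = 0.017).

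Genes of the cell cycle were split by phase. Of 75 genes of G2 and M phase, 44 rose (58.7%) and 2 fell (2.67%), with a median log2 fold change of 0.52. Of 66 S phase genes, in contrast, 6 rose (9.09%) and 20 fell (30.3%), with a median of -0.22. The shares of all genes tested were 9.93% and 8.97%. Mki67, a proliferation antigen that coats mitotic chromosomes, had 33.6 and 33.2 CPM in Young and 164 and 174 CPM in Aged GMPs, a log2 fold change of 2.34 (SE 0.22, adjusted p = 1.61e-07, edgeR). The kinetochore genes Cenpf and Cenpe rose 5.65-fold and 3.75-fold. Ube2c, the E2 enzyme of the anaphase-promoting complex, rose from 70.6 and 66.6 to 199 and 223 CPM, and Ccnb1, the mitotic cyclin, from 141 and 134 to 232 and 256 CPM. Plk1, a mitotic kinase, and Incenp, the scaffold of Aurora B, rose 2.24-fold and 2.55-fold. For each of these 7 genes the 2 Aged libraries exceeded both Young ones.

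On the side of S phase, Ccne2, the cyclin that starts replication, had 57.1 and 63.2 CPM in Young and 24.4 and 26.3 CPM in Aged GMPs, a log2 fold change of -1.25 (SE 0.11, adjusted p = 5.6e-08, edgeR). The checkpoint kinase Chek1, which was not on the list, fell from 64.0 and 77.1 to 36.2 and 39.1 CPM. Pcna, the sliding clamp, had 400 and 380 against 267 and 284 CPM, and Cdc6, which loads the replicative helicase, 206 and 205 against 136 and 127 CPM. The helicase subunit Mcm6 fell by 0.35 on the log2 scale and Hells, a chromatin remodeler, by 0.76. In all 6 genes the Aged libraries lay below the Young ones. Clspn, a partner of Chek1, went the other way, with 13 and 16.2 against 22.9 and 31.2 CPM, and that call was lost without Young 1 or Aged 2 (adjusted p at most 0.031).

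A correction for GC content and length, the offsets of which were fitted per library, gave 54 G2 and M phase genes higher and 2 lower and 4 S phase genes higher and 18 lower. Leaving out 1 library gave 32 to 36 G2 and M phase genes higher, 12 (without Aged 1) to 18 S phase genes lower and 1 (without Aged 2) to 3 S phase genes higher. The 4 libraries alone gave 20 G2 and M phase genes higher and 8 S phase genes lower. Replication-dependent histone genes, which are transcribed in S phase and mostly lack a poly(A) tail, had 3 of 61 members called higher and 1 lower, with a median log2 fold change of 0.31. The 4 called histone genes were each lost without at least 1 library, and near-identical copies make single histone genes uncertain.

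The most abundant granule genes did not separate the ages. Elane, neutrophil elastase, had 14884 and 14112 CPM in Young and 14022 and 15070 CPM in Aged GMPs, and Prtn3, proteinase 3, had 4880 and 4470 against 4515 and 4921 CPM. The ages overlapped for Mpo, Elane and Prtn3, whose log2 fold changes lay between -0.01 and 0.01, with an SE of 0.38, 0.36 and 0.16. These SEs come from the fit of all 32 libraries and do not describe the spread of the GMP duplicates alone. Ctsg, cathepsin G, had 2730 and 2585 against 3046 and 3301 CPM, which was not called (adjusted p = 0.458, edgeR). Of 19 primary granule genes 2 were called higher (10.5%, 0 without Young 2) and 3 lower (15.8%), against 9.93% and 8.97% of all genes tested, and DESeq2 called 4 higher and 4 lower. The list also holds genes other than granule enzymes. The 2 called higher were Calr (0.19) and Nkg7 (0.52), which are also counted in the MHC class I list and the T, NK and innate lymphoid list. The lysosomal protease Ctsc fell from 394 and 343 to 202 and 245 CPM (log2 fold change -0.72, SE 0.10). Lysozyme, Lyz2, fell from 605 and 635 to 343 and 436 CPM (-0.67, SE 0.10), while Lyz1, which shares sequence with Lyz2, changed by -0.75. None of these 3 calls held in the fit of the 4 libraries alone.

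Of 29 myeloid transcription factors, 6 were called higher (20.7%) and 1 lower (0 without Young 2, Aged 1 or Aged 2), 7 and 1 by DESeq2, with a median log2 fold change of 0.01, and 4 of the 6 were the immediate early genes Fos, Jun, Egr1 and Egr2. Over all genes tested the shares called higher and lower were 9.93% and 8.97%. The immediate early genes were also counted in their own list, and the others called higher were Bach2 and Etv6. Spi1 had 505 and 464 CPM in Young and 481 and 491 CPM in Aged cells. Cebpa had 102 and 106 against 102 and 93.9 CPM, and Irf8 1105 and 1102 against 970 and 1012 CPM. The log2 fold changes of these factors, 0.01 (SE 0.08), -0.09 (SE 0.14) and -0.16 (SE 0.12), were within 2 SE of 0. Gfi1, the repressor of monocyte fate, had 151 and 132 against 212 and 175 CPM with an adjusted p of 0.0574 (edgeR). Cebpb, the C/EBP of emergency granulopoiesis, had 323 and 293 CPM in Young and 136 and 142 CPM in Aged cells without overlap. Its adjusted p was 0.169 in the fit of all 32 libraries and 0.004 in that of the 4 GMP libraries alone.

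Of the genes of more mature progeny, 20.8% of the late neutrophil list and 18.5% of the monocyte and dendritic list were called lower, against 8.97% of all genes tested, and without Aged 1 each list had 1 lower call. The alarmin S100a9 had 38.9 and 39.0 CPM in Young and 9.48 and 13.1 CPM in Aged GMPs, and its partner S100a8 had 209 and 202 against 71.2 and 93.4 CPM. Camp, the cathelicidin of the secondary granule, fell from 7.2 and 5.46 to 0.626 and 1.16 CPM (log2 fold change -2.81, SE 0.49, adjusted p = 0.000172, edgeR). Both Aged libraries lay below both Young ones for these 3 genes. Of 24 late neutrophil genes 5 were called lower and 3 higher, with a median of -0.14, and without Aged 1 only 1 was lower and 0 higher. Without that library S100a9 and S100a8 had adjusted p of 0.023 and 0.038. Csf3r, the receptor of granulocyte colony-stimulating factor, was among the 3 higher genes, beside Padi4 and Mmp9, with 246 and 242 against 354 and 333 CPM, and was lost without Aged 1 (adjusted p = 0.013). Mmp9, a metalloproteinase of late granules, had 21 and 7 counts in Aged GMPs and lost its call without Young 1, Young 2 or Aged 1 (adjusted p at most 0.043).

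Of 27 monocyte and dendritic genes 5 fell and 0 rose, with a median log2 fold change of -0.46 (-0.36 with members near 0 at their bound), and 1 fell without Aged 1. DESeq2 called 2 members higher and 8 lower, and at an unadjusted p under 0.05 in edgeR 2 were higher and 11 lower. Lgals3, the lectin galectin-3, fell from 45.7 and 48.2 to 8.41 and 17.5 CPM (log2 fold change -1.85, SE 0.28, adjusted p = 4.45e-05, edgeR). The chemokine receptor Ccr2 had 209 and 233 against 102 and 117 CPM, and the matrix protein Tgfbi 72 and 79.4 against 30.5 and 36.6 CPM. Aged cells were lower in both, but Ccr2 was lost without Young 2, Aged 1 or Aged 2 (adjusted p at most 0.052) and Tgfbi without Aged 1 (adjusted p = 0.016). Csf1r, the receptor of macrophage colony-stimulating factor, had 386 and 409 against 337 and 348 CPM and was not called.

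Basophil, mast cell and eosinophil genes were called in both directions, 2 of 25 higher (8%) and 3 lower (12%), near the shares of all genes tested. Prss34, the mast cell protease of basophils (chromosome 17, 25298394 to 25300165), had 361 and 343 CPM in Young and 98.7 and 140 CPM in Aged GMPs, a log2 fold change of -1.56 (SE 0.23, adjusted p = 0.000168, edgeR). Epx, eosinophil peroxidase, had 309 and 344 against 983 and 1281 CPM, a change of 1.79 (SE 0.31, adjusted p = 0.000538). Both genes separated the ages. The eosinophil ribonuclease Ear1 had 15.3 and 14.7 against 53.1 and 98.0 CPM, but it belongs to a family of close copies and was lost without Young 1, Young 2 or Aged 2 (adjusted p at most 0.03). Prg2, the major basic protein of the eosinophil granule, had 1271 and 1137 against 2017 and 3004 CPM with an adjusted p of 0.0105. The median of the list was -0.05 (-0.33 with members near 0 at their bound). Among members not called, the basophil and mast cell receptor chain Fcer1a stood at 0.98 and the eosinophil receptors Ccr3 and Il5ra at -2.39 and -0.05 on the log2 scale. The other 2 lower genes were Cpa3, the mast cell carboxypeptidase, and Il1rl1, the receptor of interleukin-33, whose call was lost without Young 2 (adjusted p = 0.12), Aged 1 or Aged 2.

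Genes of other lineages were read as a check of the sorted cells, and erythroid and macrophage genes were lower in Aged libraries. The 30 erythroid genes summed to 1955 and 1763 CPM in Young and 521 and 426 CPM in Aged GMPs. Of these, 10 were called lower (33.3%, against 8.97% of all genes tested) and 0 higher (0 by DESeq2, 1 at an unadjusted p under 0.05 in edgeR). Their median log2 fold change was -1.50 (-1.02 with members near 0 at their bound). The β-globin gene Hbb-b2 had 297 and 241 CPM in Young and 26.6 and 10.5 CPM in Aged cells (-3.86, SE 0.48), and its close copy Hbb-b1 had 421 and 331 against 39.2 and 15.6 CPM. Alas2, the first enzyme of heme synthesis in erythroid cells, fell from 28.9 and 37.2 to 1.97 and 0.890 CPM. Both ages kept apart in each of these genes, although the 2 Aged libraries themselves differed by over 2-fold. The erythroid factor Gata1 had 10.8 and 11.7 against 5.73 and 5.70 CPM, a call lost without Young 2, Aged 1 or Aged 2 (adjusted p at most 0.019). Leaving out 1 library gave 4 (without Aged 2) to 7 members lower. In MEPs, the fraction that makes these cells, the list summed to 18661 to 19149 CPM at both ages. The fall was not particular to GMPs: 20 of the 30 genes were called lower and 1 higher in MPP3s, and 19 and 1 in MPP2s. With all tested genes split into 5 equal bins by GC content, at most 7.40% of a bin were called lower in MPP3s and 4.72% in MPP2s.

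The 25 macrophage genes summed to 401 and 399 CPM in Young and 261 and 298 CPM in Aged GMPs, with 4 and 3 members at 0 counts in Young and 12 in each Aged library. Of 21 tested, 9 were lower (42.9%) and 0 higher in edgeR (14 and 0 at an unadjusted p under 0.05) and 11 and 0 in DESeq2. Their median log2 fold change was -2.53 (-0.89 with the 10 members at or under 3 counts at one age set to their bound). C1qb, a chain of complement C1q, had 22 and 60 counts in Young GMPs and 0 and 0 in Aged GMPs. Axl, a receptor for apoptotic cells, fell from 14.4 and 8.78 to 2.06 and 1.87 CPM and Hmox1, heme oxygenase, from 9.83 and 13.4 to 1.16 and 2.85 CPM. No Aged library reached the lower Young one in these genes. The fit of the 4 libraries alone called 1 member lower. Macrophage genes were also called lower in every other fraction, from 4 in HSCs to 12 in MPP3s and 14 in CLPs, with at most 1 called higher. Of all tested genes in any of the 5 bins by GC content, at most 2.54%, 7.40% and 5.11% were called lower in HSCs, MPP3s and CLPs. B lineage genes had 2 of 23 called lower, Cd79a and Dntt (1 without Aged 1), and 0 higher (0 by DESeq2, 1 at an unadjusted p under 0.05 in edgeR), and their sums were 80.8 and 85.3 CPM in Young against 70.6 and 73.0 CPM in Aged cells. Among 24 T, NK and innate lymphoid genes 2 were called higher, Nkg7, which GMPs express (736 and 686 against 984 and 1056 CPM), and Rora, and both calls were lost without Young 2 (adjusted p at most 0.017). The share of B lineage genes called lower, 8.70%, and of T, NK and innate lymphoid genes called higher, 8.33%, were near those of all genes tested, 8.97% and 9.93%. The part of residual erythroid cells or macrophages in the differences of other genes was not tested.

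**Figure D2:**
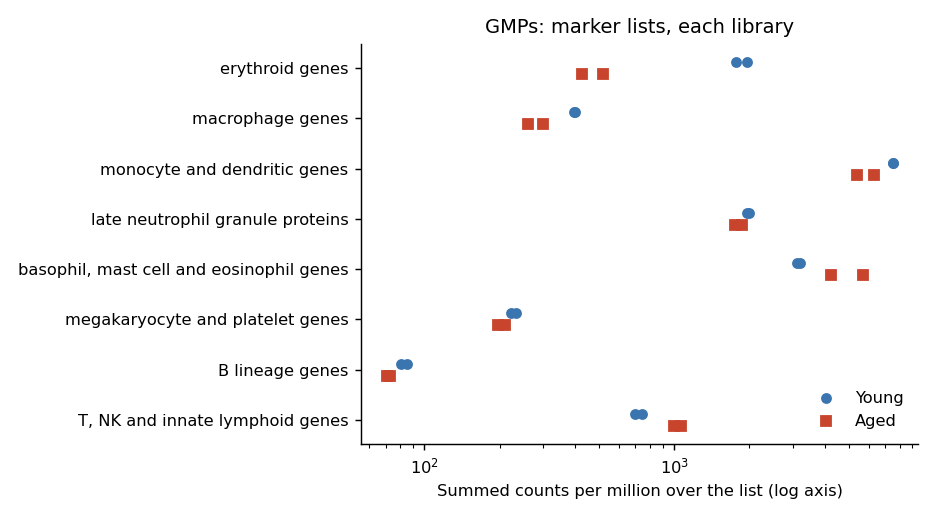
Summed CPM on a log axis over marker lists of GMP progeny and other lineages, with 1 point for each of the 2 Young (circles) and 2 Aged (squares) GMP libraries. The erythroid sums fall from 1955 and 1763 CPM in Young to 521 and 426 CPM in Aged GMPs.

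Called genes of protein synthesis and respiration were all lower in the fit of all 32 libraries. Of 80 cytosolic ribosomal protein genes 11 fell (13.8%, against 8.97% of all genes tested) and 0 rose, with a median log2 fold change of -0.28, and DESeq2 called 28 lower and 0 higher. At an unadjusted p under 0.05 in edgeR 50 were lower and 1 higher. Rps4x had 602 and 583 CPM in Young and 412 and 478 CPM in Aged GMPs. Of 75 nuclear genes of oxidative phosphorylation 16 fell (21.3%) and 0 rose (26 and 0 by DESeq2, 34 and 0 at an unadjusted p under 0.05 in edgeR), with a median of -0.19. Atp5f1, a subunit of ATP synthase, had 511 and 507 against 345 and 371 CPM (-0.51, SE 0.07, adjusted p = 1.47e-05, edgeR). These counts rested on single libraries: 1 ribosomal gene was called lower without Young 1 or without Aged 1, and 3 genes of oxidative phosphorylation without either. The fit of the 4 libraries alone called 0 ribosomal and 1 oxidative phosphorylation gene lower. With the correction for GC content and length 20 ribosomal genes and 11 of oxidative phosphorylation were lower, and the difference of Atp5f1 was -0.08 and no longer called (adjusted p = 0.539).

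Cytokine receptors were called at about the share of all genes tested, 8.82% of 34 members higher and as many lower. Il6ra, the interleukin-6 receptor chain, rose from 21.7 and 26.3 to 63.3 and 63.0 CPM (log2 fold change 1.40, SE 0.17, adjusted p = 2.69e-06, edgeR). It was 1 of 3 called higher, beside Csf3r and Kit, and 3 were called lower (0 without Young 2, Aged 1 or Aged 2). The chemokine genes Ccl3 and Ccl4 were near 0 in Young GMPs, at 0.641 and 0.207 CPM and 0.570 and 0.553 CPM, and reached 9.13 and 11.1 CPM and 4.21 and 4.72 CPM in Aged GMPs. They were 2 of 4 genes called higher (9.52%, 2 without Young 1 or Aged 2) among 42 Toll-like receptors and members of the NF-kB pathway, of which 0 were called lower (1 by DESeq2, 2 at an unadjusted p under 0.05 in edgeR). Of 30 hallmark genes of aged stem cells 3 were called higher (10%, against 9.93% of all genes tested) and 0 lower in GMPs (7 and 0 by DESeq2, 11 and 2 at an unadjusted p under 0.05 in edgeR), Jun, Clu and Selp. Selp encodes P-selectin, and it stood at 5.56 and 8.78 against 26.8 and 24.4 CPM. Clu, clusterin, had 4.06 and 3.32 against 7.25 and 8.64 CPM, and its call was lost without any 1 of the 4 libraries (adjusted p at most 0.052). In HSCs 23 of the 30 were called higher. The megakaryocyte and platelet list had 1 of 22 members called, which was again Selp.

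**Figure D3:**
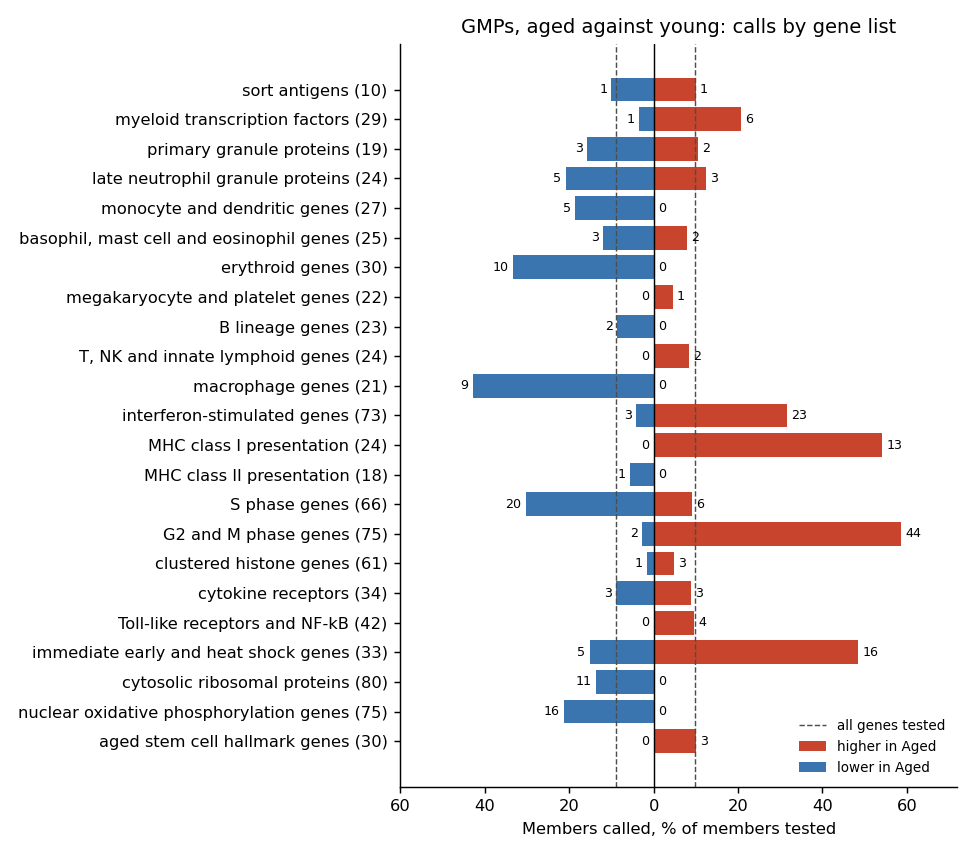
Share of the tested members of each gene list called higher (to the right) or lower (to the left) in Aged GMPs, with the number tested in parentheses and dashed lines at the shares of all genes tested, 9.93% and 8.97%. The G2 and M phase, MHC class I and immediate early lists reach furthest to the right and the macrophage and erythroid lists furthest to the left.

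Beyond the lists, 3 more genes were among the 8 most downregulated of those that met the naming rule. Klrb1f, a lectin-like receptor of the natural killer complex, had 52.9 and 63.4 CPM in Young and 17.9 and 24.3 CPM in Aged GMPs, and lost its call without Aged 1 (adjusted p = 0.011). The integrin gene Itgb5 fell from 35.8 and 46.7 to 14.2 and 16.4 CPM (log2 fold change -1.43, SE 0.17, adjusted p = 4.11e-06, edgeR). C1galt1c1, a chaperone of O-glycan synthesis on the X chromosome, had 139 and 138 against 50.9 and 60.6 CPM (-1.31, SE 0.12, adjusted p = 8.5e-08). Outside that rule, Lbr, the lamin B receptor that shapes the granulocyte nucleus and 1 of the 2 lower members of the G2 and M phase list, was chosen after its values were seen and had 1313 and 1281 against 820 and 801 CPM. In each gene the Young libraries were the higher pair, which the naming rule required of the first 3.

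Few genes were present at one age and absent at the other. With absence taken as at most 3 counts in both libraries of one age and presence as a mean of 5 CPM or more in the other, 8 genes were absent in Young and 3 in Aged GMPs, against 6 and 33 in MEPs. At 1 CPM the numbers were 39 and 31 in GMPs and 35 and 211 in MEPs. Naip6, a sensor of bacterial proteins, had 0 counts in both Young libraries and 94 and 67 in Aged GMPs, at least 34.1-fold higher against a floor of 3 counts per library. Bmpr1a, a receptor of bone morphogenetic proteins, had 0 and 0 against 64 and 61 counts. Ces1d, a carboxylesterase, had 79 and 74 and Tmem181c-ps, a pseudogene, 69 and 84 counts in Aged cells and 0 in Young, and these are at least 32.4-fold higher. The calls of Ces1d and Tmem181c-ps were lost without either Young library (adjusted p at most 0.016) and that of Ces1d also without either Aged one (at most 0.027). Of the rest, the class I gene H2-K2 had 192 counts in Aged 1 and 7 in Aged 2 and lost its call without Aged 1 (adjusted p = 0.34) or either Young library (at most 0.032), the histone gene Hist2h2aa2 had 2 and 2 against 132 and 120 counts and an adjusted p of 0.123, and Gm7367 had 863 counts in Aged 2 alone (adjusted p = 0.154).

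On the other side, Adamts13, the protease that trims von Willebrand factor, was read 122 and 129 times in Young 1 and Young 2 and not at all in Aged GMPs, at least 32.9-fold lower. Fcna, a ficolin of macrophages, had 56 and 37 counts against 0 and 0, at least 12.2-fold lower, and Plbd1, a phospholipase B-like gene, 24 and 61 against 0 and 0, at least 11.1-fold lower. Trim10, a gene of terminal erythroid maturation, had 50 and 39 counts in Young and 2 and 0 in Aged cells. Gm10778 and Hbb-bs were also absent in Aged GMPs but each was present in a single Young library, with 192 counts in Young 1 and 338 in Young 2. Of the 2674 genes called, 101 were at or under 3 counts in both libraries of one age, 68 of them higher and 33 lower.

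The age difference in GMPs was compared gene by gene with that in MPP3s, the myeloid-biased multipotent progenitors, by a test of the first minus the second. An effect of preparation on the Young GMP libraries would enter this difference in full and cannot be told apart from age in it. This difference was called as positive in 1319 genes (9.32%) and as negative in 1463 (10.3%), the first falling to 817 without Aged GMP 1. With offsets for GC content and length, 1137 genes were called as positive and 1237 as negative. Without offsets, there were 137 genes that rose in GMPs and fell in MPP3s and 301 that fell in GMPs and rose in MPP3s with the difference itself called. Where called genes averaged 20 CPM or more in GMPs and exceeded 3 counts in each of the 8 libraries compared, Fos, Dusp1 and Jun led the positive side at 5.43, 4.44 and 4.05 on the log2 scale, and none of them was called in MPP3s. Genes near 0 counts in a library had larger fitted differences, such as Egr1 at 8.19. On the negative side Ccne2 stood at -2.02 (SE 0.16, adjusted p = 2.21e-08, edgeR): its mean fell from 60.2 to 25.3 CPM in GMPs and rose from 13.2 to 22.7 CPM in MPP3s. Chek1, at -1.61, showed the same crossing, from 40.8 to 66.6 CPM in MPP3s. Tgfbi stood at -1.75, from 27.8 to 41.5 CPM in MPP3s, where it was not called.

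The S phase genes often differed in this contrast. In MPP3s 54 of 66 were called higher and 0 lower (64 and 0 at an unadjusted p under 0.05 in edgeR), in GMPs 6 and 20. Over all 14154 genes tested, 1972 were called in MPP3s in either direction. Of the 66 genes the difference was called as negative in 48 and as positive in 0 (48 and 1 by DESeq2, 57 and 1 at an unadjusted p under 0.05 in edgeR), with a median of -0.75. Over all genes tested it was negative in 10.3% and positive in 9.32%. For the 75 genes of oxidative phosphorylation, 40 were called higher and 0 lower in MPP3s (64 and 0 at an unadjusted p under 0.05 in edgeR). Their difference was negative in 47 and positive in 0 (50 and 0 by DESeq2, 62 and 0 at an unadjusted p under 0.05). The G2 and M phase list did not part the fractions in this way: 55 members were higher in MPP3s and 44 in GMPs, and the difference was positive in 8 and negative in 9. Interferon-stimulated genes were called higher in 5 and lower in 15 in MPP3s, and the difference was positive in 20 and negative in 3. The fractions share no library but come from one fit.

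**Figure D4:**
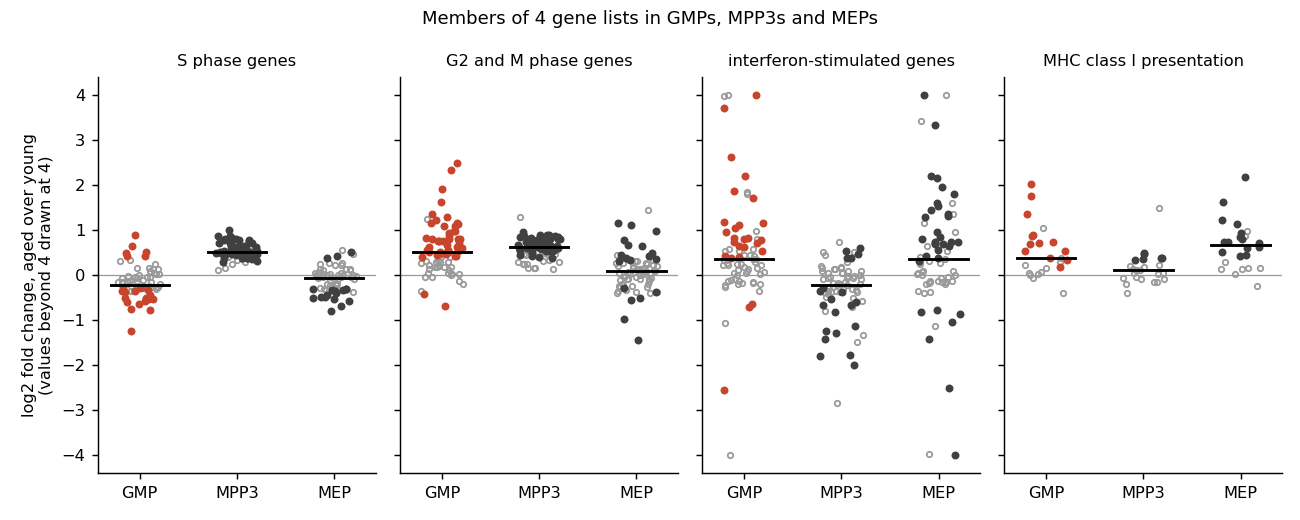
Log2 fold change, Aged over Young, of each member of 4 gene lists in GMPs, MPP3s and MEPs, with 1 point per gene, values beyond 4 drawn at 4 and a line at 0. The S phase genes lie mostly below 0 in GMPs (median -0.22) and above it in MPP3s (median 0.50), while the G2 and M phase genes lie above 0 in both (medians 0.52 and 0.62).

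Against MEPs, the committed progenitors of the other myeloid branch, the age difference was greater in GMPs for 769 genes (5.43%) and smaller for 177 (1.25%). The latter count fell to between 64 and 84 without Aged GMP 1, Aged GMP 2, Aged MEP 1 or Aged MEP 2. There were 92 genes that rose in GMPs and fell in MEPs with the difference called, while 5 did the reverse. Pde2a, a phosphodiesterase, had means of 92.2 and 112 CPM in Young and Aged GMPs and 60.1 and 1.56 CPM in MEPs, a difference of 5.53 (SE 0.17, adjusted p = 1.67e-15, edgeR). Prkcb, protein kinase C beta, and Rasgrp2, an exchange factor for Rap1, differed by 5.08 each. In MEPs they fell from 16.8 to 0.590 CPM and from 16.5 to 0.719 CPM. In GMPs Rasgrp2 rose from 173 and 175 to 254 and 265 CPM and Prkcb was not called. On the negative side, by the same rule, stood Hbb-b2 at -2.63 and the interferon-inducible GTPases Gbp3 at -1.45 and Irgm2 at -1.33, the last of which was upregulated in both fractions, in GMPs no longer without Young 2 (adjusted p = 0.021). The call of Hbb-b2 in this contrast was lost without any 1 library but Aged GMP 1 (adjusted p at most 0.055). The difference of Fos was also called as negative (adjusted p = 0.000619, edgeR), but its size has no fixed value because Fos had 0 counts in both Young MEP libraries. The call of Gbp3 was lost without any 1 GMP library, Young MEP 2 or Aged MEP 2 (adjusted p at most 0.053).

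G2 and M phase genes set GMPs apart from MEPs, with 13 called higher and 6 lower in MEPs and a difference greater in GMPs for 21 and smaller for 0 (35 and 0 by DESeq2, 45 and 0 at an unadjusted p under 0.05 in edgeR). Over all 14154 genes tested, 2943 were called in MEPs in either direction, and the difference was greater for 5.43% and smaller for 1.25%. The interferon-stimulated list was called higher in 26 and lower in 7 members in MEPs, and the difference was greater in GMPs for 5 and smaller for 9. MHC class I genes were called higher in 15 of 24 in MEPs and in 13 of 24 in GMPs, and the difference was called in 0 of them (1 smaller in GMPs by DESeq2, 6 smaller and 0 greater at an unadjusted p under 0.05 in edgeR).

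The age difference in GMPs moved with the GC content of the genes. With the tested genes divided into 5 equal bins by GC content, from 31.0% to 43.8% in the lowest bin, that bin had a median log2 fold change of -0.21, with 105 genes called higher and 550 lower. In the bin with the highest GC content the median was 0.15, with 468 called higher and 52 lower. The same slope was present in MEPs, from -0.23 to 0.15. Of the 2674 calls, 1677 (62.7%) were made again in the same fit with offsets for GC content and length, which called 1192 genes higher and 982 lower. Among the genes described above, Kit, Cd4, Ccr2, Rasgrp2, Atp5f1, Hsp90aa1 and Dnaja1 were no longer called, while B2m and Prg2 were. Whether the trend arises in the cells or in the preparation of the libraries was not tested.

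**Figure D5:**
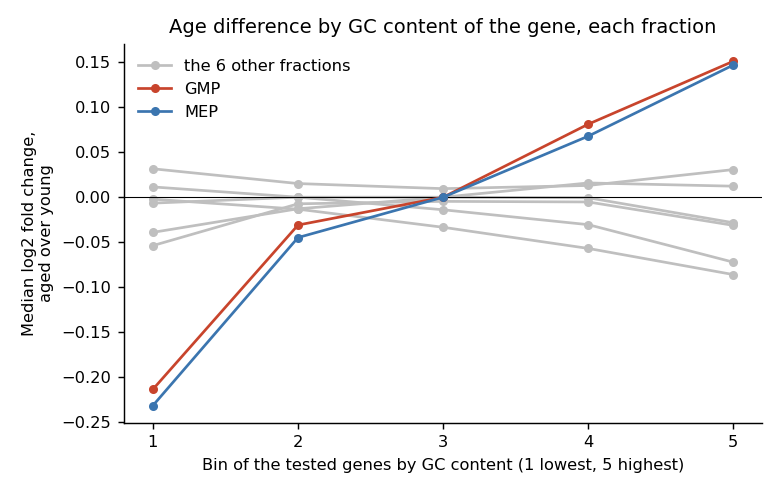
Median log2 fold change, Aged over Young, in 5 equal bins of the tested genes by GC content from lowest (1) to highest (5), with 1 line per fraction. The GMP and MEP lines rise from -0.21 and -0.23 in the lowest bin to 0.15 in the highest, and the lines of the other 6 fractions stay closer to 0.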

How the data were processed

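Per the labels and the study's methods, the authors extracted RNA with the RNeasy Plus Micro kit, amplified cDNA with the SMARTer Ultra Low Input kit, sheared it and sequenced single reads (the labels name a HiSeq1500, the methods a HiSeq2500). They aligned with TopHat2 2.0.13 and Bowtie2 2.1.0 to mm10 and took gene counts from StringTie. Use of strand was not given in the sources used here, so overlapping and antisense genes are uncertain, and amplified reads are not independent molecules. The deposited table holds raw counts of 24421 genes in 32 libraries. A table of DESeq2-normalized values and 8 tables of the authors' own comparisons (log2 fold changes, errors, statistics, p-values) were not used.

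Here edgeR 4.0.16 (R 4.3.3) was fitted to the counts of all 32 libraries, with TMM factors, filterByExpr over 16 groups (14154 genes kept), 16 residual degrees of freedom, two-sided quasi-likelihood tests and Benjamini-Hochberg adjustment within each contrast. Genes were called where the adjusted p was under 0.01, as in the study. Alternatives were DESeq2 1.42.0 (test and size factors), no filter, the compared libraries alone, a replicate block, offsets for GC content and length, counts thinned to 11237384 per library and leaving out each library. The scripts were tested on simulated data. Positions, GC content and length come from GENCODE M21 (98.9% of tested genes), promoters from RefSeq. A count of 0 was read as up to 3 counts, which covers counting error only. Of the gene symbols, 27 had turned into dates and are not named.

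The members, the 23 gene lists and the tests were chosen with earlier results of these data known. Named genes were the 8 per direction with the largest fold change (called, at least 20 CPM, over 3 counts and without overlap, called by DESeq2), the 5 per direction with the highest level at one age among those absent at the other, up to 4 called members per list, all sort antigens and 3 per direction for each difference between fractions. Granule enzymes, myeloid factors and 44 genes in all were added after their values were seen. A result that needs a withheld item is not reported here.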

Additional observations from a re-analysis of the deposited data

Results flagged for a closer look

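These 12 genes had age differences in GMPs that differed from those in MPP3s or MEPs by a test of the difference itself (edgeR, adjusted p under 0.01). Values are log2 fold changes in GMPs minus those in the other fraction. Against MPP3s, the immediate early genes Fos, Dusp1 and Jun rose more in GMPs, by 5.43, 4.44 and 4.05 (adjusted p = 3.17e-09, 5e-08 and 4.26e-09). The replication genes Ccne2 and Chek1 stood at -2.02 and -1.61 (adjusted p = 2.21e-08 and 4.64e-07), and Tgfbi at -1.75 (adjusted p = 0.000326). Against MEPs, Pde2a, Prkcb and Rasgrp2, signalling genes that fell in MEPs, stood at 5.53, 5.08 and 5.08 (adjusted p = 1.67e-15, 2.9e-10 and 3.14e-15). The β-globin gene Hbb-b2 stood at -2.63 and the interferon-inducible GTPase genes Gbp3 and Irgm2 at -1.45 and -1.33 (adjusted p = 0.00685, 0.00389 and 0.000573). Groups of 2 libraries are too small for a test of single outlying samples.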

How the results depend on the processing

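For GMPs, 1405 genes higher and 1269 lower became 256 and 232 in the fit of the 4 GMP libraries alone, 2179 and 1991 at an adjusted p under 0.05, 407 and 167 with a change of at least 1 on the log2 scale, and 719 to 1083 and 592 to 953 when 1 library was left out. For GMPs minus MPP3s, 1319 greater became 2162 at an adjusted p under 0.05 and 716 with a change of at least 1 on the log2 scale, and 1463 smaller became 254 with that change, with 817 to 1204 and 1103 to 1424 when 1 library was left out. For GMPs minus MEPs, 769 greater became 255 with the compared libraries alone and 1244 at 0.05 (545 to 857 without 1 library). The 177 smaller became 335 by DESeq2, 98 without the filter, 19 with the compared libraries alone, 582 at 0.05, 63 at 1 on the log2 scale and 64 to 241 without 1 library. Genes absent in Young GMPs numbered 8 and became 39 at 1 CPM, 31 at 0 counts and 1 CPM, 47 at 1 CPM after thinning, and 1 at 20 CPM in all 3 forms. Those absent in Aged GMPs numbered 3 and became 31, 16, 31 and 0 in all 3 forms. When 1 library was left out, the difference ranged from -8.70 to 0 for Cd4 (0 without Young 2) and from -1.95 to 3.27 for Ly6a (3.27 without Young 1). The cause of these changes was not tested, but the fits of fewer libraries had fewer residual degrees of freedom. Of the named genes, 14 lost and 3 gained their call with offsets for GC content and length. Libraries with the same number did not deviate together (correlation -0.039 in GMPs). This is a single correlation per fraction and cannot tell whether the numbers pair them, and the main fit did not pair them. A replicate block within each fraction gave 1411 genes higher and 1206 lower, and one over all fractions 1441 and 1267. Over all settings, 162 counts over gene lists moved by over 1.5 times and 528 did not, and calls of named genes were unchanged in 1876 fits, lost in 236, gained in 14, and turned or fell to 0 in 2 (Ly6a and Cd4). Depth limits genes near the floor of 0.169 to 0.228 CPM.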
